A study of Mus musculus with 6 samples.

Results

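The 41 genes described here encode hydrolases of the lysosome, proteins of its membrane, subunits of its proton pump and the TFEB family of transcription factors. They were picked by gene symbol from the count files of brown adipose tissue (BAT). All 41 had reads, among 23282 rows in all, and all 41 passed the filter on low counts, although Atp6v0d2 and Galns passed it only through the knockout mice. The study asked how BAT changes in mice that lack LETMD1, a mitochondrial protein of brown adipocytes. RNA from whole BAT of 3 wild-type and 3 Letmd1 KO mice was converted to QuantSeq libraries, which read the 3′ end of transcripts. All mice were male C57BL/6N animals of 5 weeks. The KO mice were homozygous in every tissue for a knockout-first allele, which came from 1 ES cell clone and carries a lacZ and neomycin resistance cassette within an intron of Letmd1, and no other allele or treatment is given for either genotype.

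Lysosomes break down proteins, glycans and lipids that reach them by endocytosis, phagocytosis or autophagy, and a proton pump, the V-ATPase, keeps them acidic. TFEB and its relatives TFE3 and MITF bind short E-box motifs in the promoters of many lysosomal genes. Every cell type has lysosomes, but macrophages and osteoclasts carry some hydrolases, membrane proteins and pump subunits at far higher levels than other cells, and in adipocytes the lysosome also digests lipid delivered by autophagy.

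Total counts were between 6669577 and 14574273 per mouse, and levels are given as CPM (counts per 1000000 counts of the TMM-scaled library, not divided by transcript length). Letmd1 itself had 662 ± 44.7 CPM (SD, n = 3) in wild-type BAT, while the Letmd1 KO mice had 0, 0 and 1 counts. Of 12995 genes tested across the genome, 23.7% were higher and 22.3% lower in the KO mice past the threshold of 0.05 on the adjusted p (quasi-likelihood test of edgeR, Benjamini-Hochberg over all genes tested, which gave every call here). The brown adipocyte markers were present in every mouse, and 8 of 9 were lower in the KO mice (6 lower and 1 higher under quantile normalization). Their summed levels were 41590 to 47176 CPM in wild-type and 13620 to 17427 CPM in KO BAT. Much of that sum was Fabp4, a gene of adipocytes in general, with means of 28020 CPM in wild-type and 10462 CPM in KO BAT. Fibroblast markers were higher in 6 of 6 genes and endothelial markers lower in 4 of 6. The endothelial count was 2 without wild-type replicate 1 or KO replicate 2 or 3, and 1 lower with 1 higher under scaling by library size alone. Skeletal muscle markers differed within genotypes, with 2.37, 287 and 2.09 CPM in the wild-type mice and 302, 215 and 861 CPM in the KO mice. Neutrophil and lymphocyte markers gave no call among the 2 and 1 genes tested. In counts of whole tissue, fewer cells of a type and less RNA per cell cannot be told apart.

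Of the 41 lysosomal genes, 22 were higher and 4 lower in Letmd1 KO BAT, and 15 gave no call. The share of all tested genes was 23.7% for higher and 22.3% for lower, so the lysosomal genes lay above the first share and below the second. In 23 of them every KO mouse lay above every wild-type mouse and in 4 every KO mouse lay below, where these patterns held for 30.1% and 27.2% of all genes. Their median log2 fold change was 0.53, compared with 0.03 over all genes tested. The rise was uneven. Cathepsins S and K, Cd68 and Atp6v0d2 rose by 3.72 to 7.07 on the log2 scale, whereas Lamp1, Tfeb, Tfe3 and Atp6v0d1 had values within 0.07 of 0. The 4 genes that fell were Ctsf, Ctsz, Npc2 and Scarb2. Without wild-type replicate 2, the mouse with the highest muscle level of its genotype, 19 were higher and 3 lower, and without KO replicate 2 the counts were 21 and 6.

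**Figure D1:**
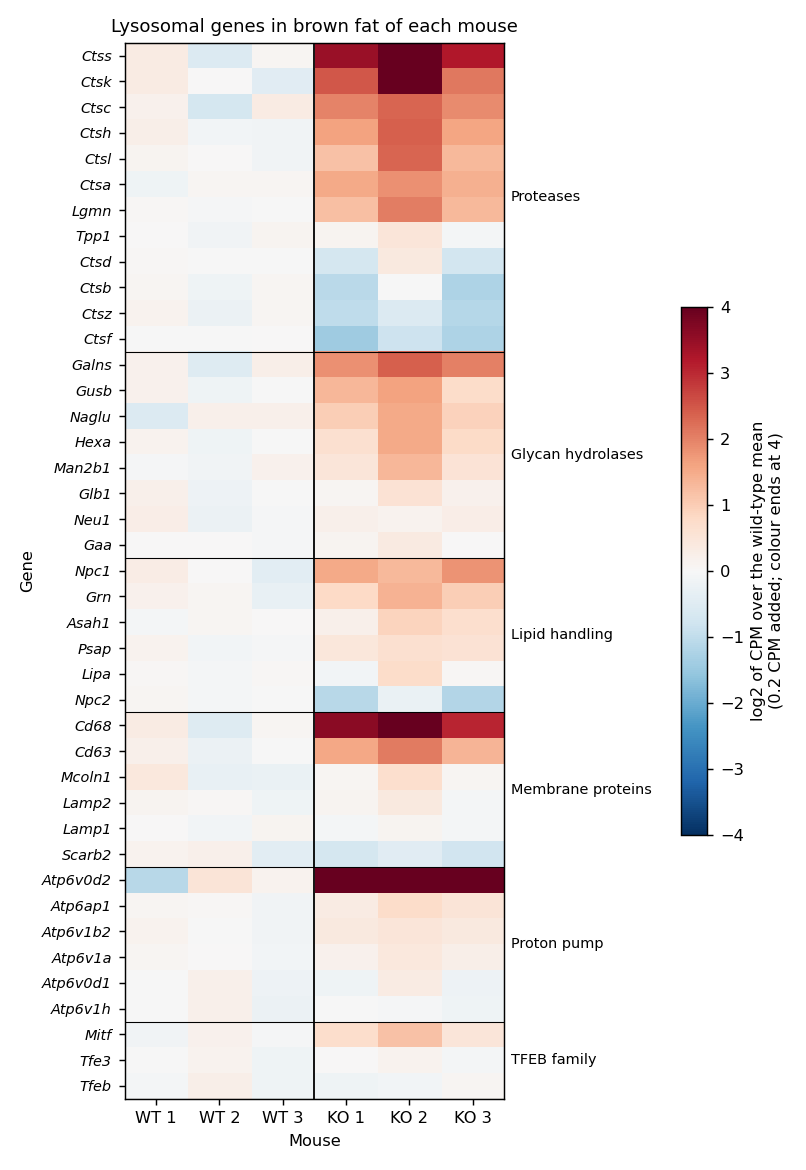
Level of the 41 lysosomal genes (rows, grouped by role) in each of the 3 wild-type and 3 Letmd1 KO mice (columns), as the log2 of CPM over the wild-type mean; red is above and blue below that mean, and the colour ends at 4. The proteases hold both strong rises and falls, 37 of 41 genes are highest in replicate 2 among the KO mice, and Lamp1, Tfeb and Tfe3 stay pale throughout.

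Cathepsins are the main proteases of the lysosome, and 7 of the 12 proteases rose, 2 fell and 3 gave no call, with a median log2 fold change of 1.58. The shares over all genes tested were 23.7% higher and 22.3% lower. Cathepsin S (Ctss, GRCm38 chr3:95526786-95556403), which trims the invariant chain of MHC class II in antigen-presenting cells, had 22.3, 12 and 18.6 CPM in the wild-type mice and 195, 510.3 and 164 CPM in the KO mice. Its lowest KO mouse lay far above its highest wild-type mouse. The log2 fold change was 4.03 ± 0.45 (SE, adjusted p = 0.000117). Cathepsin K (Ctsk, chr3:95499256-95509362), a collagen-degrading protease known from osteoclasts, had 6.25, 4.98 and 3.52 CPM in wild-type and 28.2, 149 and 22.0 CPM in KO BAT, with a log2 fold change of 3.72 ± 0.73 (adjusted p = 0.00275). Both genes were highest in KO replicate 2, and without that mouse the log2 fold changes were 2.33 for Ctsk and 3.34 for Ctss, with both calls kept. Under quantile normalization Ctsk had 3.01.

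Cathepsin C (Ctsc), which activates serine proteases of immune cell granules, had 31.0, 16.9 and 34.8 CPM in wild-type and 109, 140.0 and 104 CPM in KO BAT (log2 fold change 2.10 ± 0.25, adjusted p = 0.000153). The aminopeptidase cathepsin H (Ctsh) had 30.6, 24.1 and 23.3 against 80.0, 137 and 78.4 CPM (1.92 ± 0.23, adjusted p = 0.000173). Ctsc thus rose 4.27-fold and Ctsh 3.77-fold, with no overlap between the genotypes. Legumain (Lgmn), an asparaginyl endopeptidase that processes other cathepsins, stood at 26.6, 24.8 and 25.2 CPM in wild-type and at 58.6, 105 and 62.8 CPM in KO BAT (1.56 ± 0.22, adjusted p = 0.000405).

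Among proteases found in most tissues, the endopeptidase cathepsin L (Ctsl) rose 3.25-fold, from 154 ± 12.3 to 501 ± 241 CPM (SD, n = 3 each, adjusted p = 0.00106). Cathepsin A (Ctsa), a carboxypeptidase that also stabilises the hydrolases GLB1 and NEU1, rose 3.04-fold, from 71.3 ± 7.53 to 217 ± 35.0 CPM (adjusted p = 3.3e-05). The exons of Ctsa overlap those of Pltp on the opposite strand, and Pltp had 1496 counts in the wild-type and 6190 in the KO mice together. Since the sources used here do not give how strand was used in counting, reads from the shared bases cannot be told apart. The partners stabilised by cathepsin A did not follow it past the threshold, with log2 fold changes of 0.29 ± 0.19 for Glb1 (adjusted p = 0.258) and 0.21 ± 0.15 for Neu1 (adjusted p = 0.273). Exons of Glb1 overlap those of Tmppe on the same strand, which had 221 counts in the wild-type and 242 in the KO mice beside 369 wild-type counts of Glb1, so its value may hold reads of both.

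The proteases that fell were cathepsin F and cathepsin Z. Cathepsin F (Ctsf, chr19:4855130-4860918) had 52.0, 51.9 and 53.2 CPM in the wild-type mice and 19.6, 29.2 and 22.3 CPM in the KO mice, a log2 fold change of -1.15 ± 0.16 (adjusted p = 0.000396). The wild-type mice were nearly alike, and every KO mouse lay below all of them. Cathepsin Z (Ctsz, chr2:174427493-174439039), a carboxypeptidase abundant in macrophages and other immune cells, had 399, 314 and 384 CPM in wild-type and 180.1, 250.4 and 165 CPM in KO BAT, a log2 fold change of -0.88 ± 0.17 (adjusted p = 0.0025). Its exons overlap those of Nelfcd on the opposite strand, with 3661 and 2932 counts in the wild-type and KO mice together.

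The classical cathepsins B and D gave no call, and their KO mice differed from each other. Ctsb had 1159, 983 and 1161 CPM in the wild-type mice and 525, 1083 and 469.8 CPM in the KO mice (log2 fold change -0.67 ± 0.28, adjusted p = 0.0796). For the aspartic protease Ctsd the levels were 1547, 1472 and 1462 CPM against 919.6, 1942 and 890.1 CPM (-0.26 ± 0.27, adjusted p = 0.475). In both, KO replicates 1 and 3 lay below all wild-type mice while KO replicate 2 lay within or above them. Without KO replicate 2 both passed the threshold as lower, with -1.15 for Ctsb (adjusted p = 0.000166) and -0.72 for Ctsd (adjusted p = 0.000926). Exons of Ctsb overlap those of Fdft1 on the opposite strand, with 4413 and 1363 counts in the wild-type and KO mice together. Exons of Ctsd overlap those of Gm49369 on the same strand, which was not among the genes counted. As for Ctsa, reads from the shared bases cannot be told apart. The third protease with no call, the tripeptidyl peptidase Tpp1, had a log2 fold change of 0.18 ± 0.15.

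**Figure D2:**
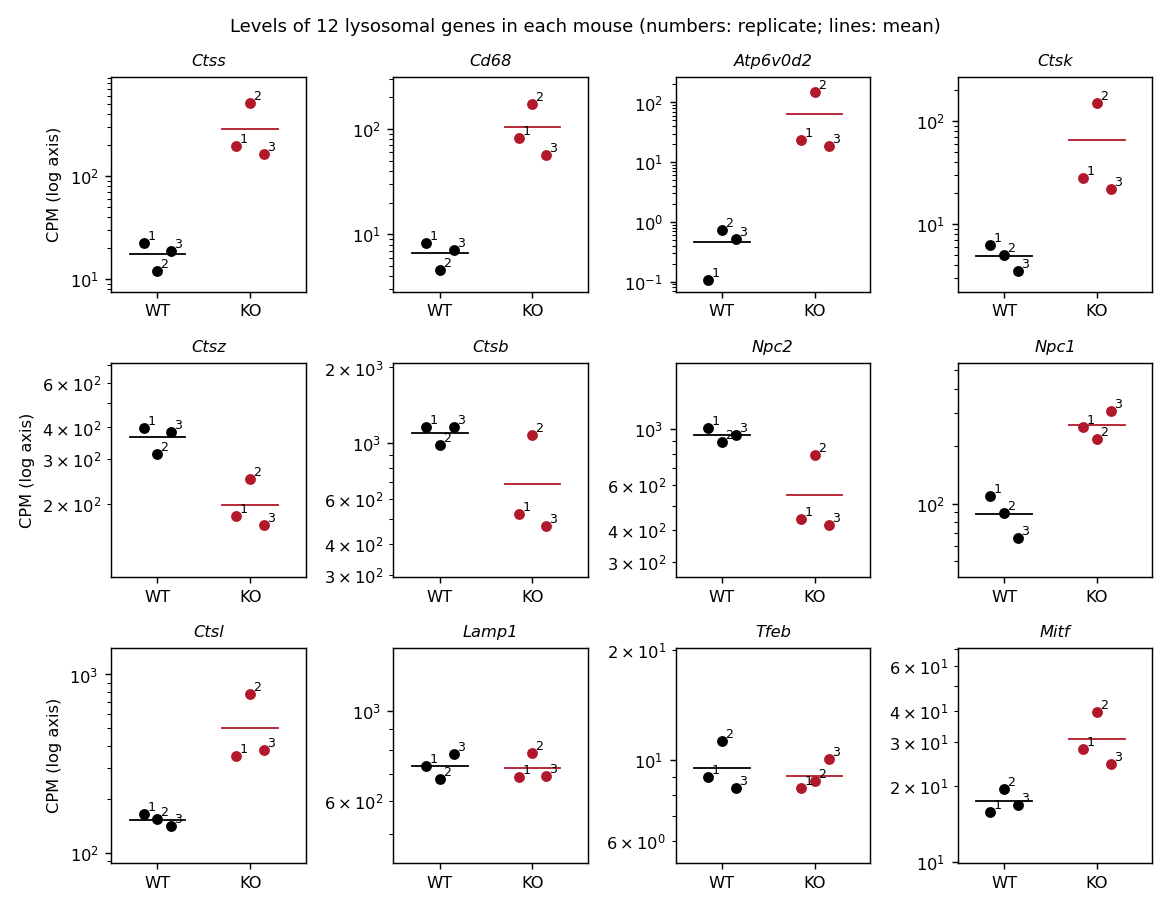
CPM on a log axis of 12 lysosomal genes in the wild-type (black) and Letmd1 KO (red) mice, each point 1 mouse with its replicate number and each line the mean of 3. Ctss, Cd68, Atp6v0d2 and Ctsk separate widely and peak in KO replicate 2, Ctsz falls, Ctsb and Npc2 are split by KO replicate 2, and Lamp1 and Tfeb overlap.

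Of the 8 enzymes that digest glycans, 5 rose, none fell and 3 gave no call, with a median log2 fold change of 0.94. Over all genes tested, 23.7% were higher and 22.3% lower. In the widest gap of the group, Galns, a sulfatase of keratan sulfate breakdown, went from 1.83, 1.06 and 1.96 CPM in wild-type to 6.26, 9.40 and 7.17 CPM in KO BAT (2.23 ± 0.34, adjusted p = 0.000645). These levels stand on 10 to 17 counts per wild-type mouse. β-Glucuronidase (Gusb) rose 2.40-fold and the heparan sulfate enzyme Naglu 2.26-fold, with adjusted p of 0.00133 and 0.00411. The α subunit of β-hexosaminidase (Hexa), needed for breakdown of GM2 ganglioside, rose 2.04-fold (adjusted p = 0.00406), and the α-mannosidase Man2b1 rose 1.8-fold (adjusted p = 0.0131). The acid α-glucosidase Gaa, which releases glucose from glycogen, gave no call at 38.8, 38.9 and 37.2 CPM in wild-type and 41.2, 49.2 and 38.7 CPM in KO BAT (log2 fold change 0.17 ± 0.13, adjusted p = 0.332).

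The genes of lipid handling split in direction. Npc1 and Npc2 act one after the other in moving cholesterol out of the lysosome, NPC2 in the lumen and NPC1 in the membrane. Npc1 (chr18:12189692-12236400) had 109, 89.7 and 65.6 CPM in the wild-type mice and 253, 219 and 305 CPM in the KO mice, a log2 fold change of 1.55 ± 0.19 (adjusted p = 0.000212). Npc2 (chr12:84754562-84773152) had 1011, 891 and 950.2 CPM against 443, 787 and 418 CPM, a log2 fold change of -0.79 ± 0.23 (adjusted p = 0.0177). Neither gene overlapped between the genotypes, and the pair moved in opposite directions, although the fall of Npc2 depended on the scaling and on single mice. Npc1 is the only gene among the 22 that rose whose highest KO mouse was replicate 3 and not replicate 2. Npc2 missed the threshold when wild-type replicate 1 (-0.75, adjusted p = 0.051) or KO replicate 1 (-0.66) or 3 (-0.63) was left out, and also under quantile normalization (-0.30, adjusted p = 0.346 from limma) and with library size alone (-0.38), in the same direction each time.

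Progranulin (Grn), a secreted and lysosomal precursor of granulins, rose 2.10-fold from 201 ± 33.6 to 423 ± 90.6 CPM (adjusted p = 0.00112). Prosaposin (Psap), the precursor of the saposins that assist sphingolipid hydrolases, had 2609, 2185 and 2314 CPM in wild-type and 3218, 3656 and 3517 CPM in KO BAT, a log2 fold change of 0.55 ± 0.14 (adjusted p = 0.0106). Its genotypes did not overlap, but leaving out wild-type replicate 2 ended the call (0.47, adjusted p = 0.062), while quantile normalization raised the value to 1.48 (adjusted p = 4.04e-05 from limma). Acid ceramidase (Asah1) rose by 0.62 ± 0.19 on the log2 scale (adjusted p = 0.0234), and leaving out wild-type replicate 1 (0.57) or 2 (0.64) or KO replicate 2 (0.47) or 3 (0.59) ended this call. Lysosomal acid lipase (Lipa), which hydrolyses cholesteryl esters and triglycerides, had 127, 116 and 127 CPM in wild-type and 114, 206 and 127 CPM in KO BAT. Its value of 0.27 ± 0.20 (adjusted p = 0.301) rested on KO replicate 2, without which it was -0.03.

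Of the 6 membrane proteins, 2 rose, 1 fell and 3 gave no call, beside 23.7% higher and 22.3% lower of all genes tested. Cd68 (chr11:69664213-69666153), a heavily glycosylated protein of macrophage lysosomes, had 8.30, 4.56 and 7.04 CPM in the wild-type mice and 82.6, 173 and 56.3 CPM in the KO mice (3.96 ± 0.43, adjusted p = 9.29e-05). That is a 15.6-fold rise, and without KO replicate 2 the log2 fold change was 3.38. The tetraspanin Cd63 rose 3.26-fold, from 186 ± 28.8 to 607 ± 162 CPM (adjusted p = 0.000139). LAMP1 and LAMP2, the most abundant glycoproteins of the lysosomal membrane, gave no call. Lamp1 had 732, 679 and 783 CPM in wild-type and 686, 789 and 693 CPM in KO BAT, a log2 fold change of -0.02 ± 0.12 (adjusted p = 0.919) whose sign turned with the scaling, and Lamp2 had 0.15 ± 0.14 (adjusted p = 0.42). Both were called higher with library size alone (0.40 and 0.56) and under quantile normalization (0.58 and 0.44). Scarb2, the receptor that carries glucocerebrosidase to the lysosome, had 95.5, 99.8 and 64.8 CPM against 53.2, 63.8 and 50.9 CPM (-0.64 ± 0.17, adjusted p = 0.0143). The lowest wild-type mouse was only just above the highest KO mouse, and no call was left when wild-type replicate 2 (-0.54) or KO replicate 1 (-0.60) or 3 (-0.57) was dropped. The lysosomal calcium channel Mcoln1 stood at 0.30 ± 0.28 on the log2 scale (adjusted p = 0.416).

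The proton pump has a membrane sector, V0, and a cytosolic sector, V1. Among its 6 subunits and accessory proteins, 3 rose, none fell and 3 gave no call, beside 23.7% higher and 22.3% lower of all genes tested. The d subunit of V0 exists in a form found in most cells, encoded by Atp6v0d1, and a form of osteoclasts and macrophages, encoded by Atp6v0d2 (chr4:19876841-19922605). Reads of Atp6v0d2 numbered 1, 7 and 4 in the wild-type and 216, 1115 and 323 in the KO libraries, or 0.108, 0.742 and 0.522 CPM against 23.7, 148 and 19.0 CPM. The 12 wild-type counts have an exact 95% Poisson interval of 6.2 to 21.0, which covers counting error only. The log2 fold change was 7.07 ± 1.08 (adjusted p = 0.000703), the largest of the 41, with 5.51 without KO replicate 2 and 5.48 under quantile normalization. Atp6v0d1 had 40.3, 47.2 and 36.0 CPM in wild-type and 36.2, 52.1 and 35.3 CPM in KO BAT, so that its genotypes overlapped fully (-0.0045 ± 0.18, adjusted p = 0.986, with the sign set by the scaling). Among V1 genes, the log2 fold change was 0.43 ± 0.11 for Atp6v1b2 (adjusted p = 0.011, lost without wild-type replicate 2 at 0.39) and 0.28 ± 0.11 for Atp6v1a (adjusted p = 0.0637). Atp6v1a gave no call although all its KO mice, at 343, 404 and 357 CPM, lay above the wild-type mice at 321, 303 and 282 CPM, and it passed the threshold with library size alone (0.70), under quantile normalization (0.61) and with a mean of at least 50 counts (0.34). The accessory protein Atp6ap1 rose 1.45-fold (adjusted p = 0.00834), and Atp6v1h had -0.08 ± 0.14, again with a sign set by the scaling.

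In the TFEB family, 1 of 3 genes rose, beside 23.7% of all genes tested. Tfeb had 8.95, 11.2 and 8.34 CPM in the wild-type mice and 8.35, 8.73 and 10.1 CPM in the KO mice (-0.07 ± 0.21, adjusted p = 0.812). Tfe3 stood at 22.4, 25.1 and 20.1 CPM against 23.0, 24.9 and 21.5 CPM (0.03 ± 0.14, adjusted p = 0.878). Both overlapped between the genotypes, and the sign of each turned with the scaling. With library size alone Tfe3 was called higher (0.45, adjusted p = 0.0283). Mitf (chr6:97807052-98021349), the relative known from melanocytes, osteoclasts and macrophages, had 15.8, 19.5 and 16.8 CPM in wild-type and 28.2, 39.3 and 24.6 CPM in KO BAT, a 1.75-fold rise (0.81 ± 0.19, adjusted p = 0.00774) with no overlap. The fourth gene of the family, Tfec, which is expressed in myeloid cells, was not one of the 41. Its counts were 1, 1 and 3 in wild-type and 26, 15 and 32 in KO BAT, a ratio of 11.4 after scaling (exact 95% interval 4.68 to 36.3, counting error only, adjusted p = 0.00147). These are transcript levels, and the activity of these factors depends largely on their entry into the nucleus, which was not measured here.

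The 41 genes were next divided by where they are known to be expressed. Of the 9 phagocyte-rich genes (Ctsc, Ctsh, Ctsk, Ctss, Ctsz, Lgmn, Cd68, Atp6v0d2 and Grn), 8 rose and Ctsz fell, with a median log2 fold change of 2.10. Of the 17 ubiquitous hydrolases, 9 rose, Ctsf fell and 7 gave no call, with a median of 0.55. The remaining 15 genes, mostly membrane proteins, pump subunits and transcription factors, had 5 higher, 2 lower and 8 with no call, with a median of 0.15. For comparison, all genes tested had a median of 0.03 and quartiles of -0.44 and 0.58, with 23.7% called higher and 22.3% lower. The phagocyte-rich median thus exceeded the median of the ubiquitous hydrolases by 1.55 on the log2 scale. The gap was between 1.37 and 1.76 when any 1 mouse was left out. It was 3.45 when the phagocyte-rich list was narrowed to Ctsk, Ctss, Cd68 and Atp6v0d2. These have the largest log2 fold changes of the 41 genes, so narrowing to them could only widen the gap. Without Ctsz, the only gene of the list that fell, the gap was 2.36, a choice made after seeing the data that could likewise only widen it. The lists themselves were chosen with earlier results of these data known. In single mice, the mean log2 CPM of the phagocyte-rich list minus that of the ubiquitous hydrolases was -1.67, -1.8 and -1.77 in wild-type and 0.075, 0.65 and -0.10 in KO BAT. Every KO mouse lay above every wild-type mouse in this difference, and KO replicate 2 was the highest. The phagocyte-rich list holds Atp6v0d2 and the ubiquitous list Galns, which passed the filter on low counts only through the KO mice. Atp6v0d2, with the largest log2 fold change of the 41, widens the difference between the genotypes. The difference without these genes was not computed.

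**Figure D3:**
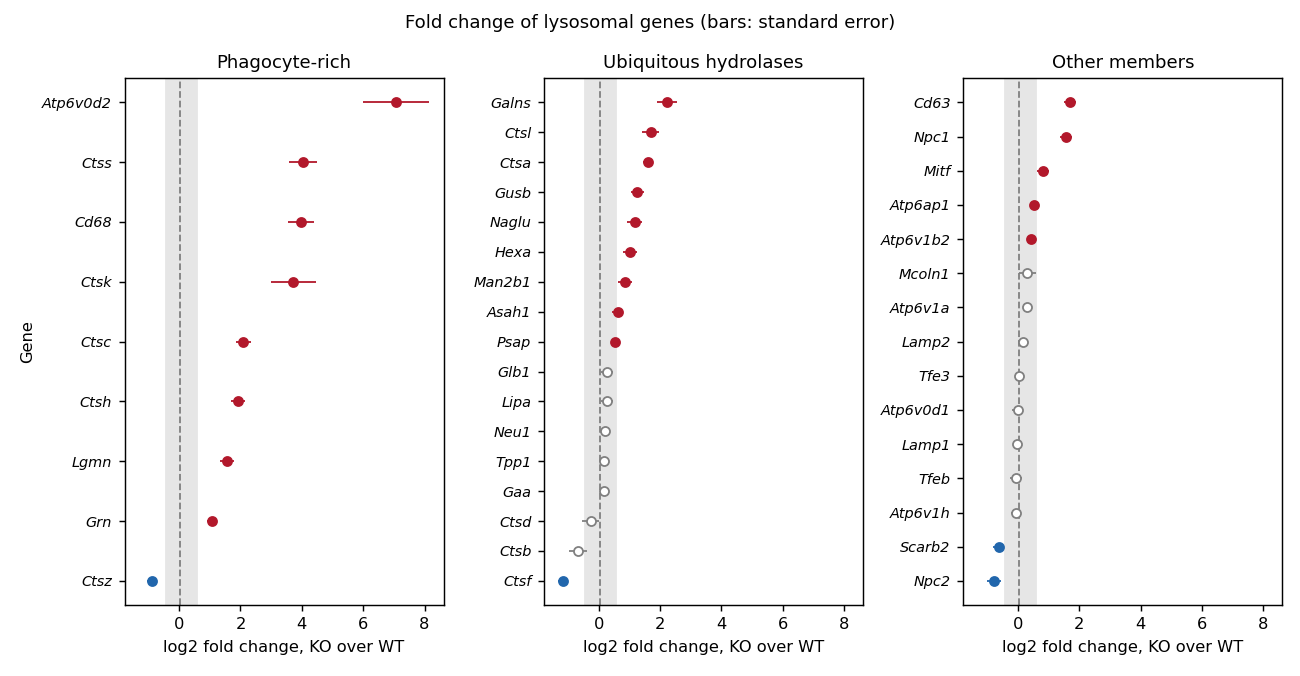
Log2 fold change between Letmd1 KO and wild-type BAT with its standard error for the 9 phagocyte-rich genes, the 17 ubiquitous hydrolases and the other 15 lysosomal genes; red points were higher, blue points lower and open points gave no call, the dashed line is the median of all genes tested and the grey band their quartiles. The phagocyte-rich points extend to 7.07 with Ctsz alone below 0, while 7 of the 17 ubiquitous hydrolases and 8 of the other 15 genes are open.

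Macrophage markers moved with the phagocyte-rich genes. All 15 of the 15 macrophage markers were higher in KO BAT, beside 23.7% of all genes tested, with a median log2 fold change of 2.58. This list too was chosen with earlier results of these data known. The summed level of the markers ranged from 196 to 277 CPM in wild-type and from 1565 to 3720 CPM in KO BAT. No marker was at 0 in every wild-type mouse, although Trem2 had at most 1 count in each and passed the filter only through the KO mice. KO replicate 2 had the highest summed level of macrophage markers, 3720 CPM, and was the highest KO mouse for 15 of 15 of these markers. This was not particular to macrophages. Each fibroblast marker was highest in KO replicate 2 as well, with summed levels of 6536, 10160 and 5852 CPM in KO replicates 1, 2 and 3. KO replicate 2 was also the highest KO mouse for 9 of 9 phagocyte-rich genes, for 16 of 17 ubiquitous hydrolases and for 37 of all 41 lysosomal genes (90.2%). The shares were 53 of 82 other lysosomal genes (64.6%) and 38.5% of all genes tested. All 4 genes that fell were highest in this mouse too, so in KO replicate 2 they lay nearest to the wild-type level. The part of macrophages, fibroblasts and muscle in the lysosomal changes was not tested.

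The TFEB-type motif was looked for in RefSeq promoter windows of GRCm38.p6, from 250 bases before to 50 bases after the start, which were found for 33 of the 41 genes. The letters searched on both strands were CACGTG (the E-box), TCACGTGA (an E-box with the flanks preferred by TFEB, which contains the former) and TCATGTG (the M-box of MITF). The E-box was in the windows of 12 of 33 genes (36.4%) and of 8.09% of 27025 genes in the table. TCACGTGA was in 5 of 33 (15.2%) and in 1.12% of all genes, and TCATGTG in 5 of 33 (15.2%) and in 4.31% of all. The 5 genes with TCACGTGA were Ctsa, Ctsd, Mcoln1, Atp6v0d1 and Atp6v1a, and the stretch around the motif is shown for each with the motif in capitals, 5′ to 3′ on the strand of the gene, so that the motif stands beside the log2 fold change. The start here is the RefSeq start from which each window was counted. No stretch runs past it, save for the motif of Atp6v0d1, which crosses it, and those of Ctsd, Mcoln1 and Atp6v1a stop well before it. GENCODE places the start of some genes elsewhere. By those positions the stretches of Ctsa, Ctsd, Atp6v1a and Scarb2 lie within the gene, and those of Mcoln1 and Grn partly so. The Ctsa window held a second TCACGTGA just after the start, which is not shown.
Ctsa (chr2:164833734-164833772, plus strand, log2 fold change 1.6): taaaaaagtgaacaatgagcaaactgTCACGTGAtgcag
Ctsd (chr7:142387893-142387952, minus strand, -0.26): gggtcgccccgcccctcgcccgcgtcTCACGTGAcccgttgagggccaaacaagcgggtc
Mcoln1 (chr8:3500447-3500506, plus strand, 0.30): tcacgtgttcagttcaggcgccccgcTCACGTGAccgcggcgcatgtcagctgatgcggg
Atp6v0d1 (chr8:105566061-105566094, minus strand, -0.0045): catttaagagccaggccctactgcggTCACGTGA
Atp6v1a (chr16:44139358-44139417, minus strand, 0.28): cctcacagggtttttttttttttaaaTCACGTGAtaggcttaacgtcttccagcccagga
Lamp1 (chr8:13159090-13159160, plus strand, -0.02): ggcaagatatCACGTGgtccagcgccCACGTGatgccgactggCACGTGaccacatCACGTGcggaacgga

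Of the 5 genes with TCACGTGA, Ctsa rose and the other 4 gave no call, with a median log2 fold change of 0.28. The 28 genes with a window and without this motif had 15 higher and 4 lower and a median of 0.54. Lamp1 is shown for its 4 E-boxes within the stretch before the start, the most of any of the 33, beside a level that differed by less than the spread between mice. None of the 7 phagocyte-rich genes with a window held TCACGTGA, and 1 of them, Lgmn, held an E-box, while 7 of 14 ubiquitous hydrolases did. The M-box lay in the windows of Grn, Ctss, Ctsa, Tpp1 and Scarb2. Before the start it was found in Grn, which rose, and in Scarb2, which fell, both times on the strand opposite to the gene so that it reads CACATGA below.
Grn (chr11:102430271-102430329, plus strand, 1.07): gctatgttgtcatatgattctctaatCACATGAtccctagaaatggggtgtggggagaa
Scarb2 (chr5:92505658-92505715, minus strand, -0.64): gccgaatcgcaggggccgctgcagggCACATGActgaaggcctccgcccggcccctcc

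A match of letters is not a bound site, and a window with no match says only that these letters were not in it. Of the other lysosomal genes with a window, 10 of 66 held TCACGTGA (15.2%), the same share of genes as among the 33 above.

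Beyond the 41, 84 further genes of the lysosome were listed, of which 82 were tested. Of these, 24 were higher and 16 lower, with a median log2 fold change of 0.09, so both shares lay near those of all genes tested (23.7% and 22.3%). Atp6v1b1 had no reads and Rragb did not pass the filter. Among 24 other hydrolases, 6 rose and 2 fell. The peptidase Dpp7 rose 2.68-fold and α-galactosidase A (Gla) 2.59-fold, and the latter rests on 8 to 26 counts per wild-type mouse. Acid sphingomyelinase (Smpd1) fell from 155, 152 and 123 CPM to 62.7, 57.3 and 69.3 CPM (-1.18 ± 0.13, adjusted p = 9.59e-05), with all KO mice close together and far below the wild-type mice. The heparan sulfate acetyltransferase Hgsnat fell by 0.59 on the log2 scale (adjusted p = 0.01).

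Among 19 other membrane proteins, 6 rose and 4 fell. Slc11a1, the metal transporter of phagosomes (also called NRAMP1), rose 9.21-fold and Laptm5, a lysosomal protein of blood cells, rose 7.98-fold (adjusted p = 8.08e-05 and 3.07e-05). Laptm5 had 16.0, 14.5 and 19.3 CPM in wild-type and 110.0, 191 and 96.0 CPM in KO BAT, and KO replicate 2 was again the highest. Mfsd8 and Tmem192, which span the lysosomal membrane several times, fell by 0.66 and 0.57 on the log2 scale. Of 14 other pump subunits, 6 rose and 3 fell. The a3 subunit of V0, encoded by Tcirg1 and known from osteoclasts, rose 2.38-fold from 10 ± 2.13 to 24.1 ± 11.7 CPM (adjusted p = 0.0123), and the low-level Atp6v0e2 rose 4.58-fold. The a2 subunit Atp6v0a2 fell from 78.8, 77.6 and 77.4 CPM to 40.7, 41.3 and 39.2 CPM (-0.95 ± 0.10, adjusted p = 8.98e-05). Within a genotype its mice were nearly alike. The V1 subunit Atp6v1d fell by 0.52 on the log2 scale (adjusted p = 0.00383).

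**Figure D4:**
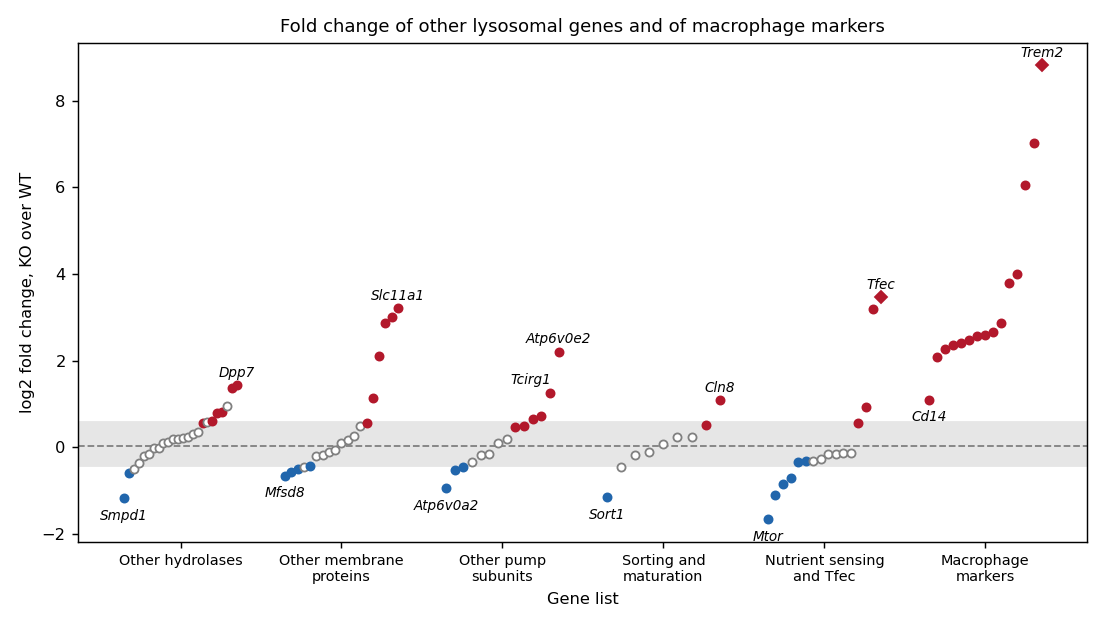
Log2 fold change between Letmd1 KO and wild-type BAT of 82 other lysosomal genes in 5 lists and of 15 macrophage markers, sorted within each list; red was higher, blue lower and open gave no call, and the dashed line and grey band are the median and quartiles of all genes tested. The 2 diamonds, Tfec and Trem2, had 3 or fewer counts in every wild-type mouse, so their plotted values depend on the constant added. Every lysosomal list holds points on both sides of 0, while all macrophage markers lie above it.

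Of 9 genes for the sorting and maturation of hydrolases, 2 rose and 1 fell. Sortilin (Sort1), a sorting receptor of the Golgi, fell from 182, 148 and 157 CPM to 56.7, 102 and 59.9 CPM (-1.16 ± 0.21, adjusted p = 0.00194). Cln8, which helps to move lysosomal enzymes out of the endoplasmic reticulum, rose 2.12-fold (adjusted p = 0.000265), and Gnptg, a subunit of the enzyme that makes the mannose 6-phosphate tag, rose 1.43-fold.

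The last list held 16 genes, those of nutrient sensing at the lysosome together with Tfec. Of the 16, 4 rose, Tfec among them, and 6 fell, with a median log2 fold change of -0.23. Over all genes tested the shares were 23.7% and 22.3%. Mtor, the kinase that keeps TFEB in the cytosol when nutrients are plentiful, fell from 129.9, 136 and 120.1 CPM to 42.6, 41 and 38.8 CPM (-1.66 ± 0.11, adjusted p = 7.71e-06). Folliculin (Flcn), which activates RagC and RagD, had 183, 129 and 94.0 CPM in wild-type and 64.2, 58.0 and 66.8 CPM in KO BAT (-1.10 ± 0.21, adjusted p = 0.0024). Both were separate between the genotypes in all mice. Rragd, the gene of RagD, went the other way, from 1.62, 1.59 and 1.30 CPM to 13.5, 12.8 and 15.2 CPM, a 9.12-fold rise (3.19 ± 0.24, adjusted p = 1.57e-05). Unlike Ctss, Ctsk, Cd68 and Atp6v0d2, Rragd was of like level in all 3 KO mice, with the highest in replicate 3.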

How the data were processed

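RNA of BAT from 3 wild-type and 3 Letmd1 KO mice was read as single-end reads of 75 bases from QuantSeq libraries. The authors aligned the reads with Bowtie2, counted unique and multiple alignments with bedtools and deposited whole-number counts per gene and mouse, not normalized. The build mm10 is from the submitters' processing notes, and the annotation and strand setting are not given in the sources used here. Reads with several alignments entered the counts, so a gene with a near copy, such as Cd63 with the pseudogene Cd63-ps, may hold reads of the other.

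Samples were grouped by the genotype in their labels, and titles name each library as a numbered mouse. The test was made in R 4.3.3 by edgeR 4.0.16 (filterByExpr with a minimum count of 10 and total of 15, TMM scaling, glmQLFit and glmQLFTest, Benjamini-Hochberg over all 12995 genes tested, threshold 0.05). SE is the absolute log2 fold change divided by the square root of the F statistic. Log2 CPM of lists used a prior count of 2. A floor of 3 counts is 0.176 to 0.397 CPM, depending on the mouse, for counting error only. Within a genotype all pairs of mice differed beyond sampling noise (12.1 to 36.3 for the chi-square over its degrees of freedom). Self-tests used counts simulated with the means and dispersions of the main fit, and their results are not given here.

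Replicate numbers were checked as pairs: deviations of same-numbered mice correlated at 0.07, -0.11 and -0.09, and those of other pairs at -0.093 to 0.19. With 3 mice per genotype this cannot decide whether they are pairs, and the labels do not say. The main fit treated the mice as unpaired. Alternatives were library size alone, DESeq2 1.42.0, quantile normalization with limma 3.58.1, no filter, a mean of 50 counts, a replicate block, at least a 2-fold change and leaving out each mouse. Positions are from GENCODE vM21 (GRCm38), which matched 41 of 41 symbols. All 41 genes may be named, with the 2 largest and 2 smallest called changes of each other list, Tfec, Tcirg1 and Letmd1. Atp6v1b1, Rragb, Trem2, Lgals3 and Fabp4 are named for their counts. The genes and lists were chosen with earlier results of these data known. Protein sequences were not used here.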

Additional observations from a re-analysis of the deposited data

How the results depend on the processing

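DESeq2 kept all 41 directions and calls. TMM factors were lower in wild-type than in KO libraries. Scaling by library size alone moved the median over all genes tested from 0.03 to 0.45, with 5899 genes higher and 1368 lower (3082 and 2896 with TMM), 32 of the lysosomal genes higher and 2 lower, and 43 of the other lysosomal genes higher and 6 lower. The median of the 41 lay 0.50 above that median under both scalings. Requiring a 2-fold change left 1899 genes higher and 1149 lower, and 16 and 1 of the 41. Leaving out 1 mouse gave 19 to 22 higher and 2 to 6 lower of the 41. The gap between phagocyte-rich genes and ubiquitous hydrolases was 3.45 with 4 phagocyte-rich genes and 2.36 without Ctsz. Both changes of the list could only widen it. With only bases before the start, 2 promoters and not 5 held the M-box.

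Signs turned for genes near 0. With library size alone the values were 0.16 for Ctsd, 0.40 for Lamp1 (then a call), 0.41 for Atp6v0d1, 0.34 for Atp6v1h and 0.35 for Tfeb. Under quantile normalization they were 0.45 for Ctsd, 0.58 for Lamp1 (a call), 0.055 for Atp6v0d1, 0.016 for Atp6v1h and -0.033 for Tfe3. With a mean of at least 50 counts, Lamp1 had 0.036 and Atp6v0d1 0.049, and Galns had too few counts to be tested. Over the 6 fits that left out 1 mouse, the values ran from -0.033 to 0.43 for Lipa, -0.086 to 0.022 for Lamp1, -0.21 to 0.097 for Atp6v0d1, -0.19 to 0.014 for Atp6v1h, -0.16 to 0.051 for Tfeb and -0.057 to 0.098 for Tfe3, none of them a call. Of the genes that fell, Npc2 (-0.38) and Scarb2 (-0.22) lost their calls with library size alone, and Npc2 also under quantile normalization (-0.30). The 10 calls that library size alone added were Tpp1, Gaa, Glb1, Neu1, Lipa, Lamp1, Lamp2, Mcoln1, Atp6v1a and Tfe3. Quantile normalization added Lamp1, Lamp2 and Atp6v1a and ended the call of Asah1 (0.48).

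With the replicate block, which joins mice of the same replicate number, 22 of the 41 were higher and 5 lower. Ctsb was the added call (-0.78, adjusted p = 0.0465 from edgeR). Of all genes, 2886 were higher and 2713 lower. With 3 mice per genotype, 1 mouse can decide a call, and no group was large enough for a check of single outlying mice. Atp6v0d2 and Galns are the members with the fewest wild-type counts, which limits the precision of their changes.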
